A study of Rattus norvegicus with 8 samples.

Results

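Oprm1 (ENSRNOG00000018191) encodes the mu opioid receptor, the receptor through which morphine acts, and was 1 of 32623 gene identifiers counted in the rat dorsal root ganglion (DRG). It was chosen by its identifier and followed through all 8 libraries. Each library came from the pooled ipsilateral L4-L6 DRGs of 1 adult Sprague Dawley rat. There were 2 naïve males, 2 males at 14 days after chronic constriction injury (CCI), in which silk ligatures loosely compress the sciatic nerve, 2 naïve females and 2 females at 14 days after CCI. The naïve rats had no surgery, so CCI is compared here with no operation rather than with a sham operation. The estrous stage of the females was not recorded. The study itself names Oprm1 for its change on these libraries, so the tests below are not independent evidence of its direction. From this RNA-seq the paper reports a significant rise of Oprm1 with injury for males and no significant rise for females. It proposes a possible peripheral contribution to sex differences in morphine analgesia. The paper also describes qPCR on a separate cohort of rats, and there it lists Oprm1 as increased after injury in males and in females. The qPCR values were not available here and were not analysed.

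The mu opioid receptor is a G protein-coupled receptor of the Gi/o class. When an enkephalin, an endorphin or morphine binds it, Gi/o proteins lower cyclic AMP by inhibiting adenylyl cyclase, open inwardly rectifying potassium channels and reduce calcium entry through presynaptic calcium channels. In the DRG the receptor is made by sensory neurons, mainly nociceptors, and is carried to their terminals in the spinal cord and the periphery, where it dampens transmitter release. The kappa, delta and nociceptin receptors are its close relatives.

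RefSeq lists 2 start sites for rat Oprm1, both on the plus strand of chromosome 1 in build GRCr8. The 250 bases before the downstream start, chr1:45585733-45585982, are shown because they hold the proximal promoter. Capitals mark the longest unbroken run of C and T.

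Oprm1 proximal promoter: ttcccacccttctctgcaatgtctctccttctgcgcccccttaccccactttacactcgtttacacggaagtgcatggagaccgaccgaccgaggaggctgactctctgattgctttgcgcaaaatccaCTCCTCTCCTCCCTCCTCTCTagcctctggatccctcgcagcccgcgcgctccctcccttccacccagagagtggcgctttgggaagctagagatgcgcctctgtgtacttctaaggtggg

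That run is 21 bases long, and a run of C or T at least this long was found in 2.12% of 33469 rat promoter windows of the same length on the strand of the gene. In the window before the upstream start the longest such run was 12 bases, a length reached by 20.1% of windows. The AP-1 motif TGANTCA, the cAMP response element TGACGTCA and the GC box GGGCGG were searched on both strands, and none of these letter strings is in either Oprm1 window, against 6.34%, 1.59% and 30.5% of all windows. CACCC, the core of the CACCC box, also searched on both strands, is in the downstream window and not in the upstream one, and 49.2% of all windows hold it. These matches are a description of the letters only.

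The libraries held between 39489103 and 60818457 counted reads, and Oprm1 received between 692 and 1793 of them, so counting alone gave an uncertainty of 2.36% to 3.80% per library. Levels are given as CPM scaled with edgeR's TMM factors. Atf3, a transcription factor induced in injured sensory neurons, was at most 12.7 CPM in the naïve and 67.7 to 133 CPM in the CCI libraries, and the Y-linked Eif2s3y had 6194 or more counts in each male and at most 1 in each female, so all libraries fitted their labels. The count table gives 1 value per gene, so the splice variants of Oprm1 are summed. In GRCr8 the neighbouring gene Ipcef1 overlaps Oprm1 on the opposite strand, and the strand setting used in counting is not given in the sources used here.

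Oprm1 was lowest in naïve males and highest in CCI males, with both female groups between them. The naïve males had 13.2 and 15.9 CPM, and the naïve females 17.5 and 18.0 CPM. The CCI females had 22.2 and 22.1 CPM, and the CCI males 30.7 and 28.5 CPM. No 2 groups overlapped, and all 4 CCI libraries lay above all 4 naïve libraries, which was so for 16.9% of the 16988 genes tested. The means were 14.5 ± 1.86 CPM in naïve males, 17.8 ± 0.332 CPM in naïve females, 22.1 ± 0.0841 CPM in CCI females and 29.6 ± 1.60 CPM in CCI males (SD, n = 2 rats each). The naïve males were the widest pair, with the higher rat 1.20-fold above the lower and 95% counting intervals (12.3 to 14.3 and 14.8 to 17.0 CPM) that did not meet. The CCI females differed 1.01-fold and the naïve females 1.03-fold, both within counting error, while the CCI males differed 1.08-fold.

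**Figure D1:**
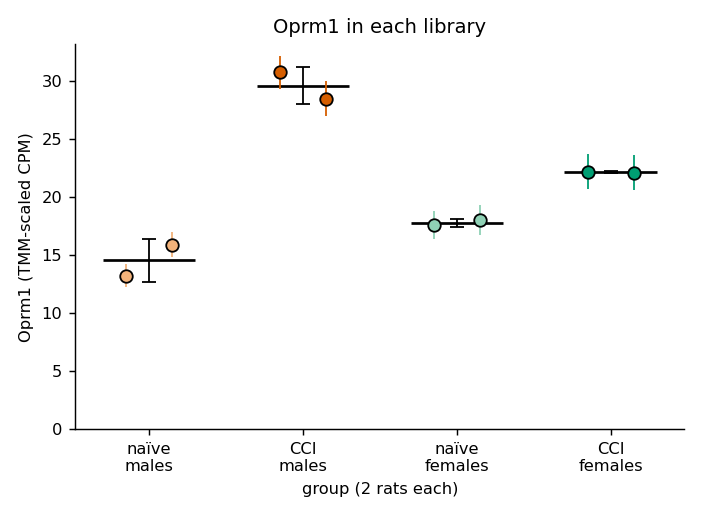
Oprm1 in TMM-scaled CPM (vertical axis, from 0) in each library by group. Points are rats with 95% counting intervals, and black lines are group means with the SD of 2 rats. The CCI males, at 28.5 and 30.7 CPM, sit above every other library, and the naïve males, at 13.2 and 15.9 CPM, sit below.

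To determine the effect of nerve injury in males, CCI and naïve males were compared on their 4 libraries. Oprm1 was upregulated 2.04-fold (95% interval 1.66 to 2.50; log2FC 1.03, SE 0.114; edgeR quasi-likelihood test, Benjamini-Hochberg adjusted p = 0.00594). Calls here needed both an adjusted p below 0.05 and a log2FC beyond 0.5 in either direction, and 9.05% of genes were called higher and 21.6% in all. Only 468 of the 16988 genes tested (2.75%) had a larger log2FC, whereas 5.14% had a smaller p. The 2 male groups did not overlap, as was the case for 72.8% of genes. With 2 rats per group the smallest two-sided p of an exact permutation is 0.333, so the adjusted p relies on a spread estimated across genes. Without CCI male replicate 1 the log2FC was 0.97 and the adjusted p 0.0502, and in that fit edgeR called 0 genes of the whole table, with 6494 at an unadjusted p under 0.05.

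In females the same comparison gave a smaller difference, and Oprm1 was not called. Its level was 1.24-fold higher after CCI (95% interval 1.06 to 1.44; log2FC 0.31, SE 0.0948; edgeR adjusted p = 0.0838), while 3.69% of genes were called higher and 5.69% in all. Both CCI females lay above both naïve females, which was the case in either direction for 59.5% of genes. A log2FC larger than that of Oprm1 was found in 16.7% of genes. The upper bound of 1.44-fold lies under the lower bound of 1.66-fold in males. These intervals come from separate fits and are not adjusted for the number of genes tested. Setting them side by side is not a test between the sexes, which the interaction term below gives. With DESeq2 on the same libraries the log2FC was also 0.31, with an adjusted p of 0.160.

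Between the sexes, Oprm1 was not called in naïve or in CCI rats. In naïve females it was 1.22-fold the level of naïve males (95% interval 0.993 to 1.51; log2FC 0.29, SE 0.118; edgeR adjusted p = 0.205), in a comparison in which 0.0706% of genes were called, 0.0177% higher and 0.053% lower. After CCI the order was the opposite, with CCI females at 0.749-fold the level of CCI males (95% interval 0.662 to 0.848; log2FC -0.42, SE 0.0727; edgeR adjusted p = 0.0685), and 1.06% of genes were called, 0.524% higher and 0.536% lower. The log2FC of CCI females against CCI males stayed under the threshold of 0.5 with both tools, although DESeq2 gave an adjusted p of 0.00872. In both comparisons the sexes did not overlap, as for 60% of genes in naïve and 51.2% in CCI rats.

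The interaction term of sex and CCI over all 8 libraries tests whether the change differed between the sexes. The female change was lower than the male change by 0.71 on the log2 scale (log2FC -0.71, SE 0.139; 95% interval -1.03 to -0.39), with an unadjusted p of 0.00103 in edgeR's test, the 323rd smallest of 16988. After adjustment it narrowly missed the threshold (edgeR adjusted p = 0.0544), which 1.59% of genes passed, 1.04% with the higher change in females and 0.547% with the lower. The call depended on the tool and the filter. DESeq2 gave an adjusted p of 0.00402 with nearly the same estimate (log2FC -0.72), and edgeR gave 0.0165 without a filter on low counts and 0.0424 with at least 10 counts required in every library. Of the 1537 genes called higher in males, 1137 (74.0%) were, like Oprm1, not called in females, and 57 of these passed the interaction test in edgeR. Being called in males alone was therefore common, and a shown difference between the sexes was not.

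**Figure D2:**
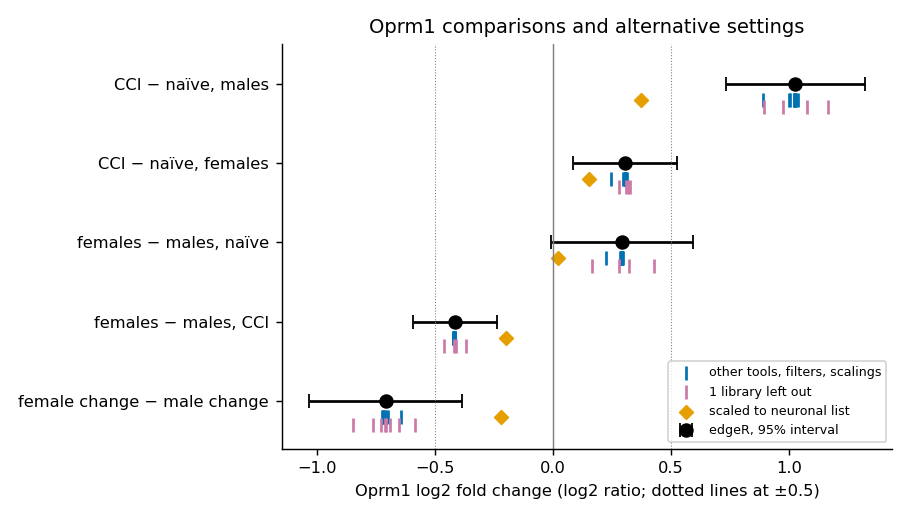
Log2 fold change of Oprm1 (horizontal axis) in the 4 pairwise comparisons and in the interaction, with black 95% intervals from edgeR. Blue marks are other tools, filters and scalings, pink marks leave out 1 library, and orange diamonds scale the libraries to neuronal transcripts. The male change is 1.03 and the female change 0.31, and the diamonds lie closer to 0 in every comparison.

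Transcripts of neurons and of myelinating glia also differed between groups in the same libraries, the glial ones in the direction opposite to Oprm1. In bulk tissue fewer cells of a type and less RNA per cell cannot be told apart. Of 10 pan-neuronal transcripts listed, 5 have an identifier here (Snap25, Uchl1, Stmn2, Nefl and Nefm). In males 4 of the 5 were called higher after CCI and 0 lower (median log2FC 0.63, against -0.01 over all genes), where 9.05% of all genes were called higher. In females 1 was called higher (median 0.12), against 3.69% of all genes. Here and in every list below, a gene has an identifier only where the study's tables of genes called on these libraries pair it with a symbol, so no list count is independent of the data. Nefl and Nefm encode neurofilaments, Uchl1 a deubiquitinase abundant in neurons, and Snap25 a synaptic fusion protein. The summed level of all 5 transcripts, Stmn2 included, was 15605 to 17207 CPM in males without and 25154 to 26072 CPM with injury. In females it was 18733 to 19634 CPM without and 19834 to 23744 CPM with injury. Stmn2, a microtubule regulator of growing axons, was called in both sexes, with a log2FC of 0.91 in males (edgeR adjusted p = 0.00565) and 0.51 in females (edgeR adjusted p = 0.0190).

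Myelin and Schwann cell transcripts went the other way. All 4 with an identifier of 7 listed (Mbp, Mag, Prx and Sox10) were called lower in males (median log2FC -1.28, where 12.5% of all genes were called lower) and 1, Mbp, in females (median -0.21, where 2% of all genes were called lower). In males their summed level was 9618 to 11725 CPM without and 2842 to 2962 CPM with injury, and in females 6463 to 8058 CPM without and 3456 to 4564 CPM with injury. What part these shifts in neuronal and glial transcripts had in the Oprm1 values was not tested beyond the scaling given next. Mbp, the myelin basic protein, had a log2FC of -2.01 in males and -1.04 in females, and Prx, a structural protein of peripheral myelin, -1.52 in males. Fabp7, a marker of satellite glia, was called lower in both sexes (log2FC -0.88 and -0.73). For macrophages only Cd163, at 1.54 to 5.96 CPM, has an identifier, and it was called after CCI in neither sex. Females were above males both after CCI (log2FC 1.77, called) and in naïve rats (log2FC 1.07, not called). The 4 blood transcripts listed had a median log2FC of -1.67 in males, where edgeR called 0 (0 at an unadjusted p under 0.05), and of -3.18 in females, where all 4 were called lower. Naïve male replicate 1 stood apart from the other naïve libraries, with a summed blood level of 82.2 CPM against 823 CPM in the other naïve male and 903 to 1311 CPM in the naïve females. Without that library the male log2FC of Oprm1 was 0.90 (edgeR adjusted p = 0.0253). No endothelial or muscle transcript of the lists has an identifier here.

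Relative to the neuronal transcripts the rise of Oprm1 was smaller. As a share of the geometric mean of the 5 transcripts, Oprm1 was 0.534% and 0.588% in naïve males and 0.772% and 0.681% in CCI males. The naïve females were at 0.569% and 0.570%, the CCI females at 0.685% and 0.583%. The male groups still did not overlap, but CCI females now overlapped both male groups. With library sizes scaled to these transcripts in edgeR, which moved the median of all genes in males to -0.67, the male log2FC was 0.37 (adjusted p = 0.0324, under the log2FC threshold), the female one 0.15 (adjusted p = 0.638) and the interaction -0.22 (adjusted p = 0.378). The difference between naïve sexes went to 0.02 and that between CCI sexes from -0.42 to -0.20. The scaling list is small, 4 of its 5 members were themselves called in males, and all entered through tables of genes the study called on these libraries.

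**Figure D3:**
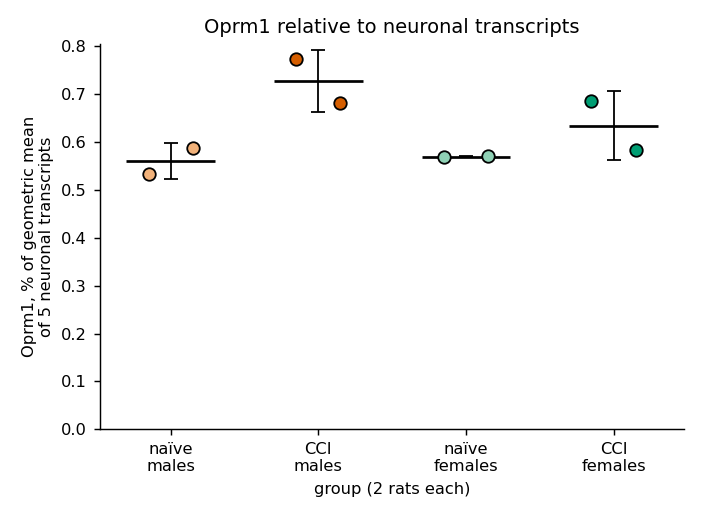
Oprm1 as a percentage of the geometric mean of 5 neuronal transcripts (vertical axis, from 0) in each library. Points are rats, and black lines are group means with the SD of 2 rats. The CCI males, at 0.681% and 0.772%, lie above the naïve males, while the CCI females, at 0.583% and 0.685%, overlap both male groups.

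Transcripts of peptidergic nociceptors rose in males by amounts on either side of that of Oprm1. All 4 peptidergic nociceptor genes with an identifier were called higher in males (median log2FC 0.98, range 0.65 to 1.36) and 1 in females (median 0.33), against 9.05% and 3.69% of all genes. Tac1, the substance P precursor, had a log2FC of 1.05 in males (edgeR adjusted p = 0.00565), close to the 1.03 of Oprm1. Adcyap1, the PACAP precursor, was called in both sexes, with a log2FC of 1.36 in males and 1.87 in females. The paper lists it among its top upregulated genes after CCI in each sex, so it is also an injury-responsive gene. In females Calca (log2FC 0.24), Calcb (0.08) and Tac1 (0.41) were not called. P2rx3, the ATP-gated channel of non-peptidergic nociceptors, had a log2FC of 0.75 in males. The large-fibre genes Nefh and Pvalb did not change alike. Nefh was called higher in males (log2FC 0.65, edgeR adjusted p = 0.0163) and was not called in females (log2FC 0.23). Pvalb was not called in males (log2FC 0.06) and was called lower in females (log2FC -0.84, edgeR adjusted p = 0.0105), where 2% of all genes were called lower.

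Of 57 other genes of opioid signalling listed (receptors, peptide precursors, processing enzymes, G proteins, receptor regulators and effectors), 11 have an identifier through the study's tables, and all 11 were tested. In males 7 were called higher and 1 lower (median log2FC 0.64), where 9.05% of all genes were called higher and 12.5% lower. In females edgeR called 0 and DESeq2 also called 0, where edgeR called 3.69% of all genes higher and 2% lower. With shares that low, 0 of 11 is not a result about these genes. In edgeR 5 had an unadjusted p under 0.05, and the median log2FC was -0.11. Such unadjusted counts, here and below, are not set against the share of all genes in females, so they show nothing particular to a list. In males 8370 of the 16988 genes tested had an unadjusted p under 0.05 in edgeR's test. The counts of both sexes were not the same in every fit that left out 1 library.

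Among the receptors, Oprl1, the nociceptin receptor, is the other opioid receptor family member measured here. It was 41.4 and 39.7 CPM in naïve males and 73.5 and 68.96 CPM in CCI males (log2FC 0.82, SE 0.0679, edgeR adjusted p = 0.00565). The 2 male groups did not overlap, as for 72.8% of genes. In females it was 50.1 and 48.6 CPM in naïve and 56.1 and 70.3 CPM in CCI rats (log2FC 0.35, edgeR adjusted p = 0.0907). The order of its 4 group means matched that of Oprm1, but unlike Oprm1 the CCI females and CCI males overlapped. Between these groups its log2FC was -0.17 (females against males, edgeR adjusted p = 0.482). Oprd1 and Oprk1 have no identifier here and are not analysed.

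Penk, the enkephalin precursor and so a source of ligand for the receptor, was 3.69 and 4.13 CPM in naïve males and 6.58 and 6.60 CPM in CCI males (log2FC 0.76, SE 0.135, edgeR adjusted p = 0.0138). In females the values moved the other way, from 5.16 and 4.23 CPM in naïve to 3.67 and 3.35 CPM in CCI rats, without a call (log2FC -0.43, edgeR adjusted p = 0.183). Enzymes and a chaperone of peptide maturation were also called in males. Pcsk2, a prohormone convertase that cleaves proenkephalin, had a log2FC of 0.84 there and 0.30 in females (edgeR adjusted p = 0.0691 in females). Cpe, the carboxypeptidase that trims the cleaved peptides, had a log2FC of 0.64 in males, and Scg5, a chaperone of Pcsk2, 0.66. Pdyn, Pomc and Pnoc are not analysed here.

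Downstream of the receptor, Adcy6, an adenylyl cyclase isoform that Gi/o proteins inhibit, fell in males, where the naïve rats had 88.0 and 76.4 CPM and the CCI rats 40.2 and 40.9 CPM (log2FC -1.02, SE 0.0843, edgeR adjusted p = 0.00565). In females it was 56.2 and 60.4 CPM in naïve and 50.8 and 48.8 CPM in CCI rats, which was not called (log2FC -0.24, edgeR adjusted p = 0.115). Adcy6 is the only effector of 13 listed that has an identifier. Its male log2FC had the sign of the Schwann cell list (median -1.28) and not that of the pan-neuronal list (median 0.63). Which cells of the ganglion its transcript came from was not tested. Rgs7 and Rgs17, which shorten Gi/o signalling by speeding the turnover of the G protein, were called higher in males, with a log2FC of 0.63 and 0.75. The G protein subunit Gng3, the regulator Rgs10 and the scaffold Flna were not called in either sex.

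Of 17 regulators that have been linked to the expression of Oprm1, 4 have an identifier. In males 2 were called lower and 0 higher (median log2FC -0.53), and in females edgeR called 0, with 1 at an unadjusted p under 0.05 (median 0.04). Ehmt2 encodes the histone methyltransferase G9a, which has been tied to silencing of opioid receptor genes after nerve injury. It was 110 and 96.2 CPM in naïve and 66.5 and 68.9 CPM in CCI males (log2FC -0.60, SE 0.0796, edgeR adjusted p = 0.00738). Dnmt3a, a DNA methyltransferase, was 21.1 and 20.8 CPM in naïve and 13.3 and 12.9 CPM in CCI males (log2FC -0.68, SE 0.0678, edgeR adjusted p = 0.00565). Rest, a repressor of neuronal genes, and Stat6 were not called. Over all genes, 12.5% were called lower and 9.05% higher in males, and 2% lower and 3.69% higher in females.

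Of 22 other receptors that signal through Gi/o proteins, 3 have an identifier, and 2 were called higher in males and, in females, 0 by edgeR (2 at an unadjusted p under 0.05), against 9.05% and 3.69% of all genes called higher. Galr1, a galanin receptor, was 5.58 and 7.34 CPM in the naïve males and 13.9 ± 0.0787 CPM (SD, n = 2) in the CCI males (log2FC 1.11, SE 0.160, edgeR adjusted p = 0.00867). In females its log2FC was 0.20 (edgeR adjusted p = 0.396). Gabbr2, a subunit of the GABA B receptor, had a log2FC of 0.63 in males, and the serotonin receptor Htr1d was not called.

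**Figure D4:**
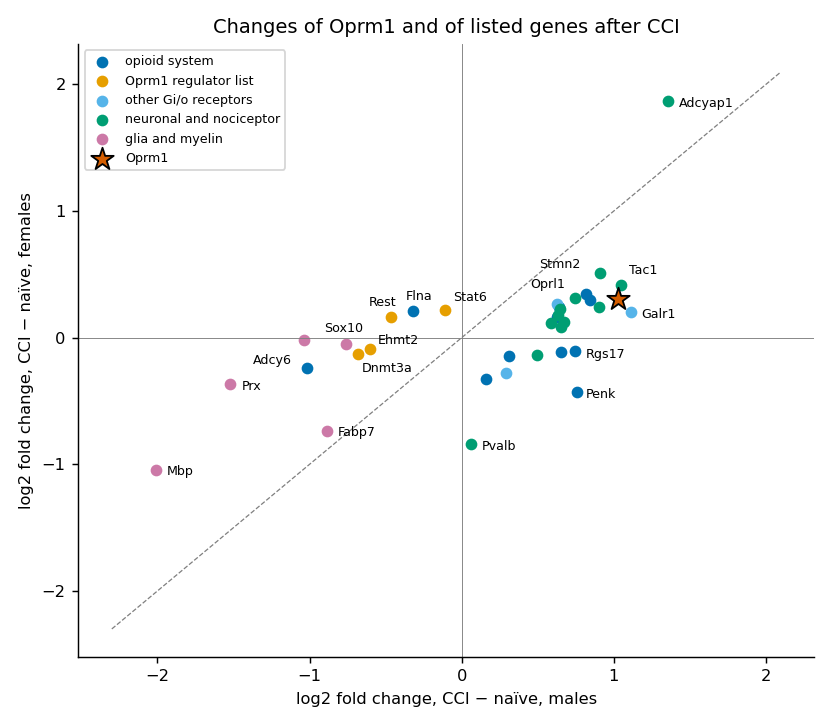
Log2 fold change after CCI in males (horizontal axis) and in females (vertical axis) for Oprm1 (star) and for listed genes by role, with equal change on the dashed line. Oprm1 lies at 1.03 in males and 0.31 in females, most neuronal and opioid genes lie to the right of the line, and glial genes lie to its left.

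The genes whose pattern was most like that of Oprm1 were sought by Pearson's r of log2 CPM over the 8 libraries, in the 13082 genes whose log2 CPM averaged 1 or more. The 6 most alike that have a symbol were F2rl2, Sorcs3, Gabbr2, Sec23a, Mfsd6 and Pak3, with r between 0.987 and 0.992. Among all genes compared they ranked from 4 (F2rl2) to 9 (Pak3). An r of at least 0.9 was reached by 1033 genes, so a profile of this shape was widespread. F2rl2 encodes the thrombin receptor PAR3, Sorcs3 a sorting receptor, Sec23a a coat protein of vesicles that leave the endoplasmic reticulum, and Pak3 a neuronal kinase. The male log2FC ran from 0.55 for Sec23a upward and stayed below that of Oprm1 in all 6. In females Pak3 had a log2FC of 0.44 and Sorcs3 of 0.33. The 6 genes were picked for their likeness over these same libraries, and symbols come from tables of genes the study called, so these values are a description fixed in part by the choice, with no test. The libraries also share sex, injury and depth differences.

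**Figure D5:**
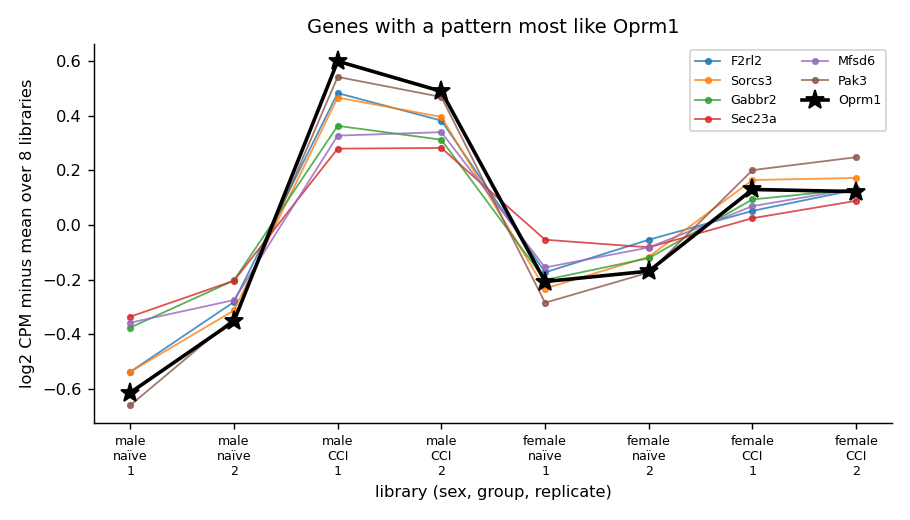
Log2 CPM minus its mean over the 8 libraries (vertical axis) for Oprm1 (black, stars) and 6 other genes, in each library (horizontal axis). The 6 are those most like Oprm1 among genes with a symbol. All 7 lines are lowest in naïve males and highest in CCI males, and Oprm1 has the largest rise between them.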

How the data were processed

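RNA was measured in 8 libraries, 1 rat each and 2 rats per group, grouped by their titles. Poly(A) RNA was made into directional libraries and read from both ends in 2 sequencing batches, and the labels do not say which library was in which. Base calls came from CASAVA 1.8.2. The authors aligned the reads to rn6 with HISAT2, removed ribosomal reads and deposited raw counts per Ensembl gene from featureCounts, with no normalization or batch correction. Genes were kept by filterByExpr (minimum count 10, minimum total 15), and 16988 of 32623 remained. R 4.3.3 and edgeR 4.0.16 were used for TMM scaling and quasi-likelihood tests on the 4 libraries of each comparison and on all 8 for the interaction, with DESeq2 1.42.0 as an alternative. The scripts were tested on simulated counts. P-values were adjusted over all genes tested, and the SE is the log2FC divided by the square root of F. Likeness used log2 CPM with a prior count of 2.

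Symbols came from the paper's tables, which pair 1961 identifiers with a symbol. The reference gave no Ensembl identifiers. Oprm1 and the lists were chosen with earlier results of these data known. Named genes were the opioid receptors and precursors and the called list members with the smallest p (up to 3 in males and 2 in females). The 6 genes most like Oprm1 among those with a symbol were also named. List members named only to account for a list were added. The genes beside Oprm1 have no identifier here. Injury genes served only as a check of labels. Of 10 listed, 6 have an identifier, and all 6 were called higher in both sexes. Over all genes 9.05% were called higher in males and 3.69% in females. The 6 also entered through the study's tables of called genes, so their count is not independent of the data. At the depth of these libraries, counting error on Oprm1 stayed under the differences between groups. Each alternative changed 1 choice, except DESeq2 over all 8 libraries, which changed the tool and the libraries fitted. In addition, 1 library was left out in turn. Counting intervals cover counting error only.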

Additional observations from a re-analysis of the deposited data

Results flagged for a closer look

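For 6 genes of the lists, edgeR's interaction of sex and CCI passed the adjusted threshold, which 1.59% of all genes did. Adcy6 differed by a log2FC of 0.79 (female change minus male change, adjusted p = 0.0430), Mag by 1.03 (adjusted p = 0.0483), Prx by 1.17 (adjusted p = 0.0475) and Sox10 by 0.72 (adjusted p = 0.0412). In these 4 genes the log2FC after CCI was further below 0 in males. Of the injury genes, Atf3 differed by 0.78 (adjusted p = 0.0412) and Csf1, a macrophage growth factor, by 0.64 (adjusted p = 0.0496), with the larger rise in females. Oprm1 itself, with -0.71 and an adjusted p of 0.0544, did not pass.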

How the results depend on the processing

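The log2FC of Oprm1 kept its direction in every comparison under all alternatives run. In males it ranged from 0.37 to 1.04 over 11 alternatives and from 0.90 to 1.16 with 1 library left out, and the call was lost with neuronal scaling (0.37) and without CCI male replicate 1 (0.97). The female value ranged from 0.28 to 0.33, the naïve difference from 0.17 to 0.43 and the CCI difference from -0.46 to -0.37 with 1 library left out, and none was called in any setting. Over the 11 other alternatives the CCI difference ranged from -0.42 to -0.20, the smallest size under neuronal scaling. The interaction was called with DESeq2 (-0.72), without a filter on low counts (-0.72), with at least 10 counts in every library (-0.70) and without naïve male replicate 2 (-0.85), and ranged from -0.85 to -0.58 with 1 library left out. Total counts without TMM moved the median of all genes in males to -0.15 and Oprm1 to 0.89. The opioid list in males went from 8 calls, 7 of them higher, to 2 with neuronal scaling, both lower, while the calls over all genes went from 3663 to 9626 and their median to -0.67. It went to 2 with glmTreat, 1 in each direction, and to between 0 and 8 with 1 library left out; in females it stayed between 0 and 1. Under neuronal scaling the male log2FC reversed for Cpe (-0.0168), Rgs7 (-0.0353), Gabbr2 (-0.0282), Sec23a (-0.11), Mfsd6 (-0.00623) and Nefm (-0.0285), since the scaling subtracts the rise of the neuronal list. Over 28 other named genes, 523 of 634 values kept their call, 104 lost it, 1 gained one and 6 reversed.

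With the replicate number as a block the male log2FC of Oprm1 was 1.03 (edgeR adjusted p = 6.21e-07), the female one 0.31 (adjusted p = 0.0938) and the interaction -0.71 (adjusted p = 0.0561), and the genes called went from 3663 to 4478 in males and from 967 to 1180 in females. The block adds a coefficient to each pairwise fit on 4 libraries, so its p-values rely even more on a spread estimated across genes. The smaller adjusted p in males is therefore not stronger evidence. The paper describes random assignment and no pairing of rats. The labels do not say what the number marks. In the deposited table the columns of both male libraries numbered 1 carry an added letter a that no other column has, and its meaning is not given in the sources used here. The differences between replicates 1 and 2 correlated across genes at 0.731 between the male groups and -0.00788 between the female groups.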
